A study of Mus musculus with 12 samples.

Results

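The 48 genes described here encode the urea cycle and the enzymes and carriers of amino acid catabolism. They were listed by symbol, and all 48 were found among the 27912 genes of the deposited liver table. Liver RNA of 3 CCR1-KO mice (replicates 65, 66 and 67), which lack the chemokine receptor CCR1, was compared with that of 3 wild-type (WT) mice (replicates 62, 63 and 64). All 6 were male, 8 weeks old at the start, and ate the CL diet, high in fat and cholesterol with added cholate, for 12 weeks. The WT mice were C57BL/6. The labels do not say whether CCR1-KO mice were littermates of the WT mice, so genotype and genetic background cannot be told apart. No source used here states how Ccr1 was disrupted. Chow-fed mice and 6 further labelled libraries were not analysed here.

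Amino acids that are not used for protein are stripped of their nitrogen, mostly in hepatocytes, and the carbon is burnt or turned into glucose. The urea cycle fixes the released ammonia: Cps1 makes carbamoyl phosphate in mitochondria, Otc and Ass1 carry it to argininosuccinate, and Asl and Arg1 release urea. Many of these genes are known to be induced in liver by fasting, glucagon and glucocorticoids, and many are stronger in periportal than in pericentral hepatocytes.

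Of the 48 members, all of which were tested, 13 were higher in CCR1-KO than in WT livers and 0 were lower at an adjusted p under 0.05 (edgeR quasi-likelihood test, Benjamini-Hochberg over 17729 genes). Over all genes tested, 2.83% were higher and 3.61% were lower, 6.44% in either direction. The 13 were Cps1, Ass1 and Asl of the urea cycle, Tat and Hpd of tyrosine breakdown, Acmsd of the kynurenine pathway, Got1, Prodh, Prodh2, Aass and Cbs, and the carriers Slc7a2 and Slc38a2. Unadjusted p was under 0.05 for 29 members, 28 of them higher and 1, Agxt2, lower, against 4331 of the 17729 genes. DESeq2 called 25 members higher and 0 lower, and over all its genes 6.48% were higher and 8.21% lower. Beside the 13, it passed Arg1, Hgd, Fah, Tdo2, Haao, Gls2, Sds, Ftcd, Ivd, Cth, Agxt and Slc38a4. On simulated counts with known changes, 58 of 222 DESeq2 calls were false, against 8 of 136 edgeR calls. DESeq2 recovered 67% of the 2-fold changes and edgeR 43%. The simulation used dispersions estimated by edgeR, with 100 genes changed 2-fold and 100 changed 4-fold. These shares therefore need not hold for the members passed by DESeq2 alone, whose security was not tested. The median log2 fold change (CCR1-KO over WT) was 0.46 over the members and 0.0017 over all genes. It was above 0 for 42 members with TMM scaling, 13 of which turned below 0 when libraries were scaled to total reads. With TMM scaling every CCR1-KO library lay above every WT library in 32 members, and below in 1, Agxt2. Over all genes these shares were 15.2% and 17.4%.

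**Figure D1:**
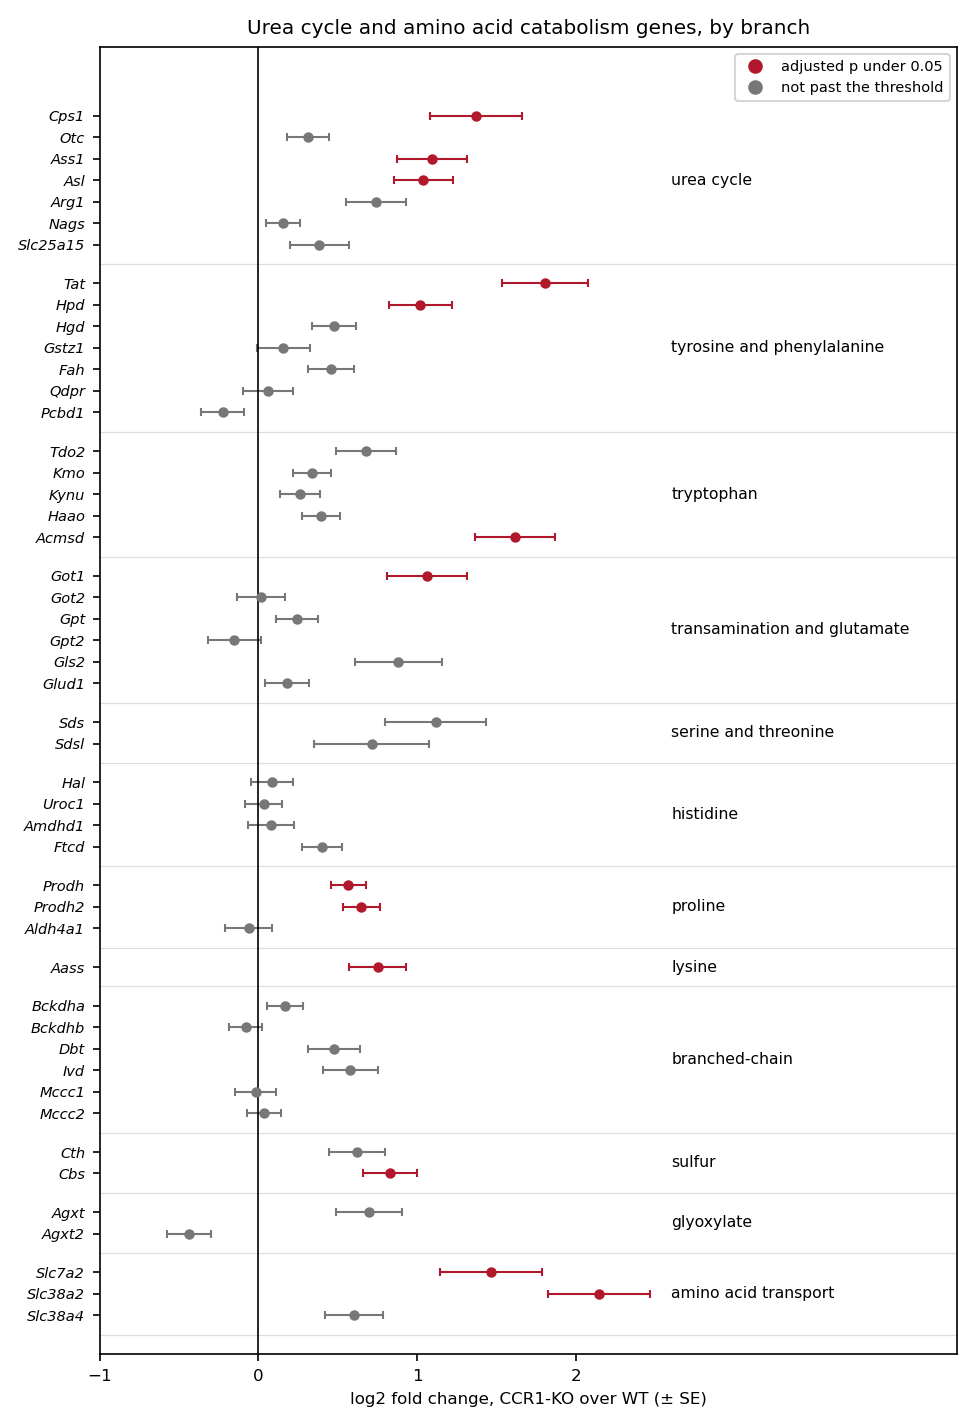
Log2 fold change (CCR1-KO over WT, ± SE, 3 libraries per group) of the 48 members, ordered by branch; red points have an adjusted p under 0.05. The 13 red points lie between 0.57 (Prodh) and 2.14 (Slc38a2), and no member below 0 is red.

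The 6 libraries held 74699391 to 79154085 reads each. Major urinary protein (Mup) transcripts took 3.36%, 12.2% and 15.8% of the reads in CCR1-KO replicates 65, 66 and 67, against 1.00%, 1.05% and 0.927% in WT replicates 62, 63 and 64. Libraries were scaled with TMM, which sets the bulk of genes level. Scaled to total reads instead, the median of all genes moved to -0.30 and that of the members to 0.14, so the members stood 0.44 above all genes, against 0.46 with TMM. Under that scaling 1.24% of all genes were higher, and 7 members passed, all higher: Cps1, Ass1, Tat, Hpd, Acmsd, Slc7a2 and Slc38a2. Among all called genes 43.9% were higher with TMM, 20.4% with total reads and 17.0% with limma on log2(FPKM + 0.5). Ccr1 itself had 0.144 ± 0.0867 CPM (reads scaled to an equal library size, here with TMM) in CCR1-KO livers and 0.958 ± 0.611 CPM in WT livers (SD, n = 3 each), a log2 fold change of -2.72 ± 0.76 (SE) with adjusted p = 0.0755 and no overlap between the groups.

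The tissue was checked against marker genes. The 7 measured hepatocyte markers, such as Alb and Apoa1, summed to 33674 to 39322 FPKM in CCR1-KO livers and 42354 to 47411 FPKM in WT livers. FPKM (fragments scaled to gene length and total reads) lacks the TMM factors, and Alb made up most of these sums. Calls here and below are from the TMM-scaled fit. In that fit the median log2 fold change of the 7 was 0.014, with 4 above 0, -0.16 for Alb, and 1, Serpina1a, called higher. Stellate cell and fibroblast markers were lower for 6 of 7, with sums of 20.8 to 27.7 FPKM in CCR1-KO livers against 50.7 to 119 FPKM in WT livers. Bile duct markers summed to 19.3 to 27.2 FPKM in CCR1-KO livers and 71.1 to 120 FPKM in WT livers, with 1 of 5, Spp1, lower. Spp1 made up most of these sums, at a mean of 20.95 FPKM in CCR1-KO livers and 87.84 FPKM in WT livers. Krt19, Epcam and Sox9, at low levels, were also lower in every CCR1-KO library than in any WT library, without passing. The groups overlapped for Krt7. None of the 8 macrophage markers, 5 endothelial markers, 5 lymphocyte markers or 2 tested neutrophil markers passed, and no marker measured was at 0 in every library. Kidney, adipocyte and skeletal muscle markers summed to at most 0.09 FPKM in CCR1-KO livers and at most 0.27 FPKM in WT livers. The 1 pancreas marker measured, Cela1, was higher, at 5.68 to 8.17 FPKM in CCR1-KO livers and 3.47 to 4.38 FPKM in WT livers. The part of these cell types in the results on the members was not tested. In bulk tissue, fewer cells of a type and less RNA per cell cannot be told apart.

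Calls became fewer, among members and among all genes, when any WT library or CCR1-KO replicate 66 or 67 was left out. Fits without 1 library also have fewer samples. Without CCR1-KO replicate 65, 22 members were higher and 1, Agxt2, was lower, where over all genes 5.50% were higher and 7.67% lower. Without CCR1-KO replicate 66 the members higher were 2, Tat and Slc38a2, and without CCR1-KO replicate 67 they were 3, with Acmsd added. Over all genes 0.796% were higher without replicate 66 and 0.947% without replicate 67. Without WT replicate 62, 63 or 64, 0 members passed, while 202 (1.10%), 102 (0.558%) and 163 (0.891%) of all genes did. Unadjusted p was under 0.05 for 27, 25 and 25 members in these fits, where the share over all genes was not taken. With all 6 libraries it was under 0.05 for 29 members and 4331 of 17729 genes. The member median ran from 0.40 to 0.55 over these 6 fits. All 13 called members kept a fold change above 0 in every one of the 16 other settings run.

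The sequence before the gene start is shown for 5 of the 13: Slc38a2 and Tat, which had the largest log2 fold changes, and Got1, Prodh2 and Cbs, whose windows hold matches to further motifs searched. Each is the 250 bases upstream of the start, 5′ to 3′ on the gene's strand (RefSeq, GRCm38.p6), with motif matches in capitals.
Tat promoter (chr8:109990186-109990435, plus strand): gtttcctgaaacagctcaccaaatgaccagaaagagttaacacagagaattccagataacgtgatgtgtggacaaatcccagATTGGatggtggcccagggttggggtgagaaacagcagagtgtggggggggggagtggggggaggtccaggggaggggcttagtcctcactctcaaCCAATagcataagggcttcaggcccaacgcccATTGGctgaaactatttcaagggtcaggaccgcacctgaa
Slc38a2 promoter (chr15:96699729-96699978, minus strand): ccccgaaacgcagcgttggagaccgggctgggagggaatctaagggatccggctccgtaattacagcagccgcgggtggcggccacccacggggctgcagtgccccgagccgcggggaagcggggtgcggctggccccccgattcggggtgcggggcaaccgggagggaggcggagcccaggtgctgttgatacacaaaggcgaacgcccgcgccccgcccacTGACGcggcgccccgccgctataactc
Got1 promoter (chr19:43524606-43524855, minus strand): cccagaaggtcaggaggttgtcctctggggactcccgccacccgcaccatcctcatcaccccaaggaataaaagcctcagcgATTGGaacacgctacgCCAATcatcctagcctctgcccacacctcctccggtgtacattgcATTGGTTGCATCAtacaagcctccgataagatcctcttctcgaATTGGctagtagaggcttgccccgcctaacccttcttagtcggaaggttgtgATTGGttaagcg
Prodh2 promoter (chr7:30493408-30493657, plus strand): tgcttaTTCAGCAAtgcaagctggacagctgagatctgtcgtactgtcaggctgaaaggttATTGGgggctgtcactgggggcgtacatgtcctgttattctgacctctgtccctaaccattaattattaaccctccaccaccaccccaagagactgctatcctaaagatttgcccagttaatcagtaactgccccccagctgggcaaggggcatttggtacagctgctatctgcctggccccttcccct
Cbs promoter (chr17:31637206-31637455, minus strand): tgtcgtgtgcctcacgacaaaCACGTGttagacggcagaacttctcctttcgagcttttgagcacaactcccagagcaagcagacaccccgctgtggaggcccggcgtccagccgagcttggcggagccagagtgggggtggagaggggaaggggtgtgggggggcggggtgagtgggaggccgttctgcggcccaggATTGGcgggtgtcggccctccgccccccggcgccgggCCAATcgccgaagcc

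RefSeq promoter windows were matched for 37 members and 10 of the 13 called ones. In all, 12 motifs were searched on both strands. CCAAT boxes (CCAAT) were found in 5 of the 10 called members (Aass, Cbs, Got1, Prodh2 and Tat) and in 33.8% of 32851 promoters. The Tat window holds 3 of them, with first bases 168, 72 and 40 bases before the start, and the Got1 window holds 5. The C/EBP-ATF element TTGCATCA was found in Got1 alone among the 37, with its first base 102 bases before the start, and in 0.791% of promoters; it directly follows a CCAAT box. The Slc38a2 window has the CRE half-site TGACG, at 27 bases, found in 3 of the 10 and in 17.8% of promoters. A C/EBP match (TTGCNNAA) stands 244 bases before the start of Prodh2 and an E-box (CACGTG) 229 bases before that of Cbs. These motifs were each in 2 of the 10, and in 9.56% and 6.02% of promoters. TATAAA was found in 0 of the 10, against 12.4% of promoters, and the glucocorticoid receptor half-site TGTTCT in 0 of the 10, against 16.1%. The HNF4 site CAAAGTCC (1.20% of promoters) and the FOXO site TGTTTAC (3.17%) were also in 0 of the 10. The FOXA site TGTTTGC was in 2 of them, Aass and Acmsd, and in 4.30% of promoters. The longer HNF1 and DR1 sites searched were in 0 of the 37, and in 0.00913% and 0.0335% of promoters. Exact matches to them are so rare that 0 of 37 cannot show whether less exact sites are present.

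The urea cycle was the branch with the most calls. Of its 7 genes, 3 were higher, and the median log2 fold change was 0.74. In TMM-scaled CPM every CCR1-KO library lay above every WT library for all 7, against 15.2% of all genes. On the FPKM scale, which lacks the TMM factors, the groups overlapped for Otc, Nags and Slc25a15. Cps1, the mitochondrial enzyme that commits ammonia to the cycle (ENSMUSG00000025991, chromosome 1, 67123026 to 67231259, plus strand, GRCm38 as for all genes below), had 1571, 3420.1 and 3009.7 CPM in CCR1-KO replicates 65, 66 and 67, against 859.6, 1130.0 and 1105 CPM in WT replicates 62, 63 and 64. CCR1-KO replicate 65 lay nearest to WT, yet above all 3 WT libraries. The log2 fold change of Cps1 was 1.37 ± 0.29 (SE), 2.59-fold, with adjusted p = 0.0356.

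Ass1, which joins citrulline to aspartate (ENSMUSG00000076441, chromosome 2, 31470207 to 31520672, plus strand), had 1382, 2361 and 2304 CPM in the CCR1-KO libraries and 999.6, 888 and 944 CPM in the WT libraries. Asl, which splits argininosuccinate into arginine and fumarate (ENSMUSG00000025533, chromosome 5, 130011258 to 130025019, minus strand), had 391, 620.5 and 510.3 CPM in CCR1-KO livers and 225, 267 and 249 CPM in WT livers. Neither gene overlapped between the groups, and replicate 65 was again the lowest CCR1-KO library in TMM-scaled CPM. Their log2 fold changes were 1.09 ± 0.22 (adjusted p = 0.0307) for Ass1 and 1.04 ± 0.19 (adjusted p = 0.0227) for Asl.

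The other 4 genes of the cycle did not pass in edgeR. Arg1, which cuts arginine into urea and ornithine, had 899, 1287 and 1302 CPM in CCR1-KO livers and 604, 782 and 705 CPM in WT livers (log2 fold change 0.74 ± 0.19, adjusted p = 0.0604). Otc, which makes citrulline, had 309, 332 and 395 CPM in CCR1-KO livers and 281, 268 and 286 CPM in WT livers, a log2 fold change of 0.31 ± 0.13. Values of 0.38 ± 0.18 were found for the mitochondrial ornithine carrier Slc25a15 and of 0.15 ± 0.11 for Nags, which makes the activator that Cps1 needs. For Otc and Nags the sign turned when libraries were scaled to total reads.

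**Figure D2:**
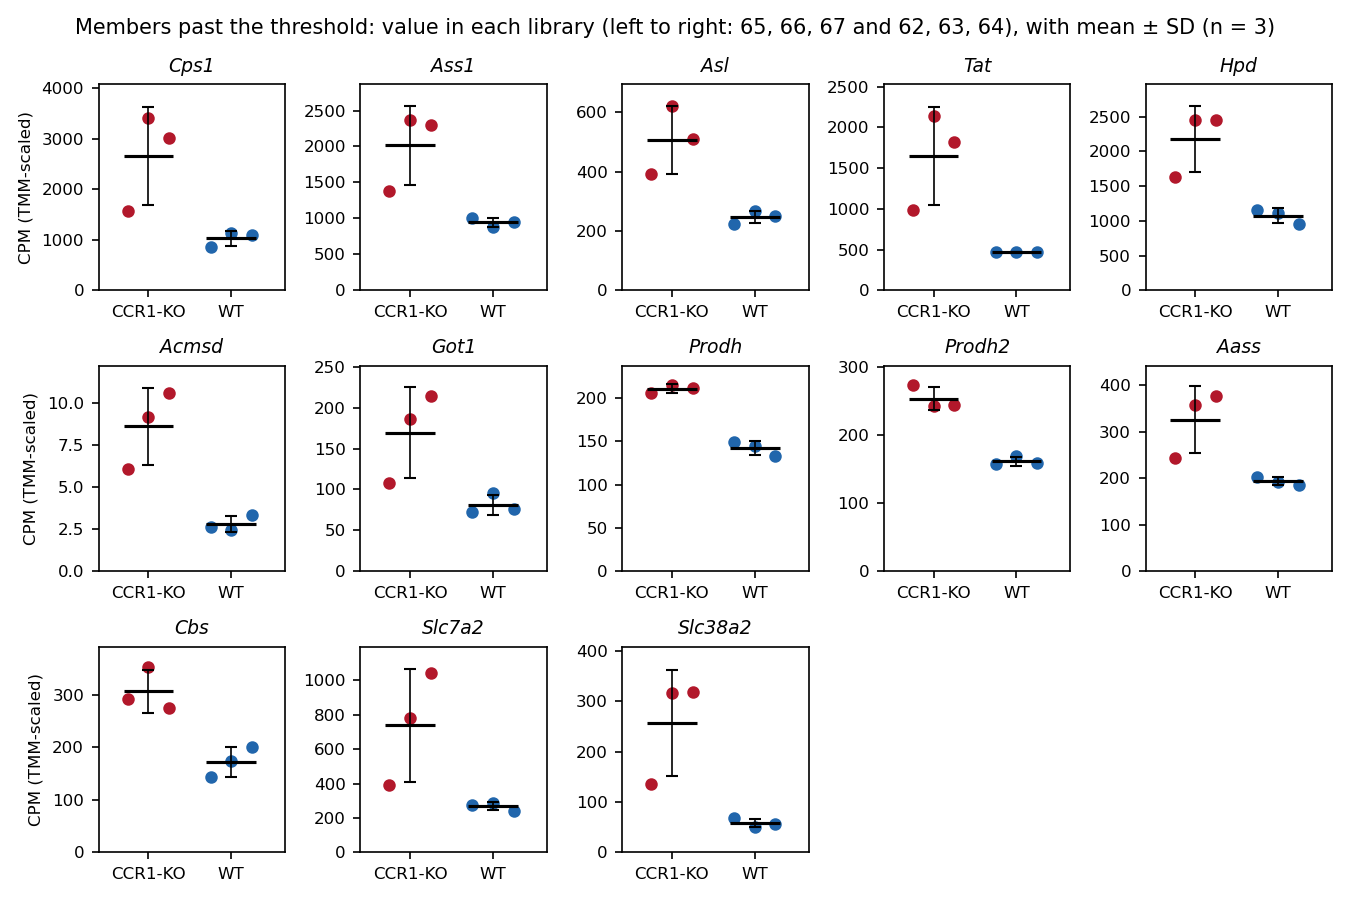
TMM-scaled CPM of the 13 members past the threshold in each library, CCR1-KO (red) left of WT (blue); horizontal lines are group means and error bars are SD (n = 3). No WT point reaches a CCR1-KO point in any panel, and the CCR1-KO spread is wide for Cps1, Tat, Slc7a2 and Slc38a2.

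Tyrosine and phenylalanine breakdown had 2 of 7 genes higher and a median of 0.46. Tat, tyrosine aminotransferase, the first step of tyrosine breakdown in liver (ENSMUSG00000001670, chromosome 8, 109990437 to 109999803, plus strand; promoter above), had 986, 2143 and 1826 CPM in CCR1-KO livers, against 470.2, 477 and 472 CPM in WT livers. The WT libraries were almost equal while the CCR1-KO libraries differed among themselves by more than the whole WT level. The log2 fold change was 1.80 ± 0.27, 3.49-fold, adjusted p = 0.0147.

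Hpd, the dioxygenase of the next step (ENSMUSG00000029445, chromosome 5, 123171807 to 123182727, minus strand), had 1625, 2453 and 2456 CPM in the CCR1-KO libraries and 1150.0, 1118 and 953 CPM in the WT libraries. It was higher by 1.02 ± 0.20 on the log2 scale (adjusted p = 0.0281). The later steps had smaller values that did not pass: 0.47 ± 0.14 for Hgd, which opens the ring of homogentisate, 0.16 ± 0.17 for the isomerase Gstz1 and 0.46 ± 0.14 for Fah, which yields fumarate. Hgd and Fah did not overlap between the groups, with 424, 515 and 552 CPM for Hgd in CCR1-KO livers and 354, 369.6 and 349 CPM in WT livers. Qdpr and Pcbd1, which regenerate the cofactor tetrahydrobiopterin, had log2 fold changes of 0.06 ± 0.16 and -0.22 ± 0.13 with overlapping groups.

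In the tryptophan branch 1 of 5 genes passed. In TMM-scaled CPM every CCR1-KO library lay above every WT library for all 5, against 15.2% of all genes. On the FPKM scale the groups overlapped for Kmo, Kynu and Haao. Acmsd, which diverts the kynurenine pathway away from NAD synthesis (ENSMUSG00000026348, chromosome 1, 127729413 to 127767978, plus strand), had 6.12, 9.16 and 10.6 CPM in CCR1-KO livers and 2.66, 2.44 and 3.34 CPM in WT livers. A gene of low level, it had groups without overlap, and its log2 fold change of 1.62 ± 0.25 (3.06-fold, adjusted p = 0.0164) came after those of Slc38a2 and Tat. Tdo2, the enzyme that commits tryptophan to the pathway, had 1428, 1875 and 2164 CPM in CCR1-KO livers and 1109, 1272 and 1036 CPM in WT livers (0.68 ± 0.19, adjusted p = 0.0733). The enzymes in between, Kmo, Kynu and Haao, had log2 fold changes of 0.34 ± 0.12, 0.26 ± 0.13 and 0.39 ± 0.12, none past the threshold. Kmo overlaps Fh1 on the other strand, which had 46.1% as many reads and a log2 fold change of 0.42.

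Among the transaminases and glutamate enzymes 1 of 6 passed. Got1, the cytosolic aspartate aminotransferase (ENSMUSG00000025190, chromosome 19, 43499752 to 43524605, minus strand; promoter above), had 108, 186 and 215 CPM in CCR1-KO livers and 72.8, 95.7 and 75.6 CPM in WT livers. Its log2 fold change was 1.06 ± 0.25, with an adjusted p of 0.0493 close to the threshold. The call ended with upper-quartile scaling, with total reads, with no filter on low counts and in the 3 limma fits. Gls2, the liver glutaminase, had 132, 264 and 255 CPM in CCR1-KO livers and 139.9, 120.1 and 94.1 CPM in WT livers, so CCR1-KO replicate 65 lay among the WT libraries (0.88 ± 0.27, adjusted p = 0.101). Got2, Gpt, Gpt2 and Glud1, the mitochondrial aspartate aminotransferase, the alanine aminotransferases and glutamate dehydrogenase, lay between -0.15 and 0.24.

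The serine and threonine genes had the largest median of the enzyme branches, 0.91, yet 0 of 2 passed in edgeR, while DESeq2 passed Sds; unadjusted p was under 0.05 for 1 of them. Sds, serine dehydratase, a periportal gene that turns serine into pyruvate, had 80.2, 201 and 105 CPM in CCR1-KO livers and 51.8, 60.9 and 65.3 CPM in WT livers. The groups did not overlap, but CCR1-KO replicate 66 stood well above the rest, and the adjusted p of the log2 fold change of 1.12 ± 0.32 was 0.0782. Sds shares its locus with Plbd2 on the opposite strand, whose reads amounted to 86.2% of those of Sds. No source used here states a strand setting for the counting. Its paralog Sdsl had 8.30, 17.8 and 8.25 CPM in CCR1-KO livers and 4.57, 7.49 and 8.88 CPM in WT livers, with groups that overlapped.

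Prodh and Prodh2 of the proline branch rose by less than Cps1, Ass1 and Asl, with CCR1-KO replicates closer together in TMM-scaled CPM. Prodh, proline dehydrogenase (ENSMUSG00000003526, chromosome 16, 18060357 to 18090203, minus strand), had 205, 216 and 212 CPM in CCR1-KO livers and 149, 145 and 133 CPM in WT livers. Prodh2, hydroxyproline dehydrogenase (ENSMUSG00000036892, chromosome 7, 30493622 to 30513402, plus strand; promoter above), had 273, 242 and 244 CPM in CCR1-KO livers and 157, 169 and 159 CPM in WT livers. In TMM-scaled CPM, CCR1-KO replicate 65 was the lowest of its group for Prodh and the highest for Prodh2. On the FPKM scale it was the highest for both. The log2 fold changes were 0.57 ± 0.11 (adjusted p = 0.0299) for Prodh and 0.65 ± 0.12 (adjusted p = 0.0232) for Prodh2, and both calls ended with total reads and in the 3 limma fits. Aldh4a1, which completes proline breakdown to glutamate, had a value of -0.06 ± 0.15 with groups that overlapped in TMM-scaled CPM. Prodh overlaps Dgcr6 on the other strand, which had 15.5% as many reads and a log2 fold change of -0.10.

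Lysine breakdown was represented by Aass, whose protein carries out its first steps (ENSMUSG00000029695, chromosome 6, 23072173 to 23132986, minus strand). It had 243, 357 and 377 CPM in CCR1-KO livers and 202, 192 and 186 CPM in WT livers. The groups did not overlap, and the log2 fold change was 0.75 ± 0.18 (adjusted p = 0.0493), a call that ended under the same settings as that of Got1. Cbs, which condenses homocysteine with serine (ENSMUSG00000024039, chromosome 17, 31608894 to 31637238, minus strand; promoter above), had 292, 352 and 274 CPM in CCR1-KO livers and 143, 174 and 201 CPM in WT livers. All 3 CCR1-KO libraries lay above WT, at 0.83 ± 0.17 (adjusted p = 0.0316), and that call ended with total reads and in the 3 limma fits. Cth, the next enzyme toward cysteine, had 202, 260.4 and 311 CPM in CCR1-KO livers and 155, 189 and 158 CPM in WT livers (0.62 ± 0.18, adjusted p = 0.082).

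The branched-chain, histidine and glyoxylate genes gave 0 calls among 12 members in edgeR. Unadjusted p was under 0.05 for 2 branched-chain genes, 1 histidine gene and both glyoxylate genes, and DESeq2 passed Ivd, Ftcd and Agxt. Among the 6 branched-chain genes the median was 0.10. Ivd, isovaleryl-CoA dehydrogenase of leucine breakdown, had the largest value, with 152, 192 and 242 CPM in CCR1-KO livers and 134, 130.4 and 128 CPM in WT livers (0.58 ± 0.17, adjusted p = 0.0914). Subunits of the branched-chain ketoacid dehydrogenase had 0.17 ± 0.11 (Bckdha), -0.08 ± 0.10 (Bckdhb) and 0.47 ± 0.16 (Dbt), and those of methylcrotonyl-CoA carboxylase had -0.02 ± 0.13 (Mccc1) and 0.04 ± 0.11 (Mccc2). The values of Mccc1 and Mccc2 lay within 1 SE of 0.

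Of the 4 histidine genes, Ftcd, which passes the formimino group of histidine to folate, had 490.1, 442 and 457 CPM in CCR1-KO livers and 318, 366 and 370.3 CPM in WT livers (0.40 ± 0.13). Hal, Uroc1 and Amdhd1, the steps before it, had log2 fold changes from 0.03 to 0.09 with overlapping groups. Agxt, the peroxisomal enzyme that clears glyoxylate, had 172, 243 and 181 CPM in CCR1-KO livers and 92.0, 133 and 142 CPM in WT livers (0.70 ± 0.21, adjusted p = 0.0886). Its mitochondrial counterpart Agxt2 had 201, 152 and 180.4 CPM in CCR1-KO livers and 230.3, 253 and 239 CPM in WT livers. In TMM-scaled CPM, Agxt2 was the one member with all CCR1-KO libraries below WT. Its log2 fold change of -0.44 ± 0.14 had adjusted p = 0.103. On the FPKM scale, which lacks the TMM factors, all CCR1-KO libraries also lay below WT for Got2, Gpt2, Aldh4a1 and Bckdhb.

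The carriers of the plasma membrane had the largest branch median, 1.46, with 2 of 3 higher. Slc38a2, a sodium-coupled carrier of small neutral amino acids that is known to be induced by amino acid shortage (ENSMUSG00000022462, chromosome 15, 96687392 to 96699730, minus strand; promoter above), had 135, 317 and 319.8 CPM in CCR1-KO livers, against 67.6, 51.3 and 56.0 CPM in WT livers. This was the largest difference of all members, at 2.14 ± 0.32 on the log2 scale, 4.41-fold (adjusted p = 0.0145). Slc7a2, a carrier of arginine and other cationic amino acids (ENSMUSG00000031596, chromosome 8, 40862396 to 40922308, plus strand), had 392, 784 and 1043 CPM in CCR1-KO livers and 277, 285 and 242 CPM in WT livers. The CCR1-KO libraries were spread widely but did not reach down to WT (1.46 ± 0.32, 2.76-fold, adjusted p = 0.0389). Slc38a4, a relative of Slc38a2 that also carries neutral amino acids, had 737, 1006 and 1146 CPM in CCR1-KO livers and 619, 678 and 605 CPM in WT livers (0.60 ± 0.18, adjusted p = 0.0928).

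**Figure D3:**
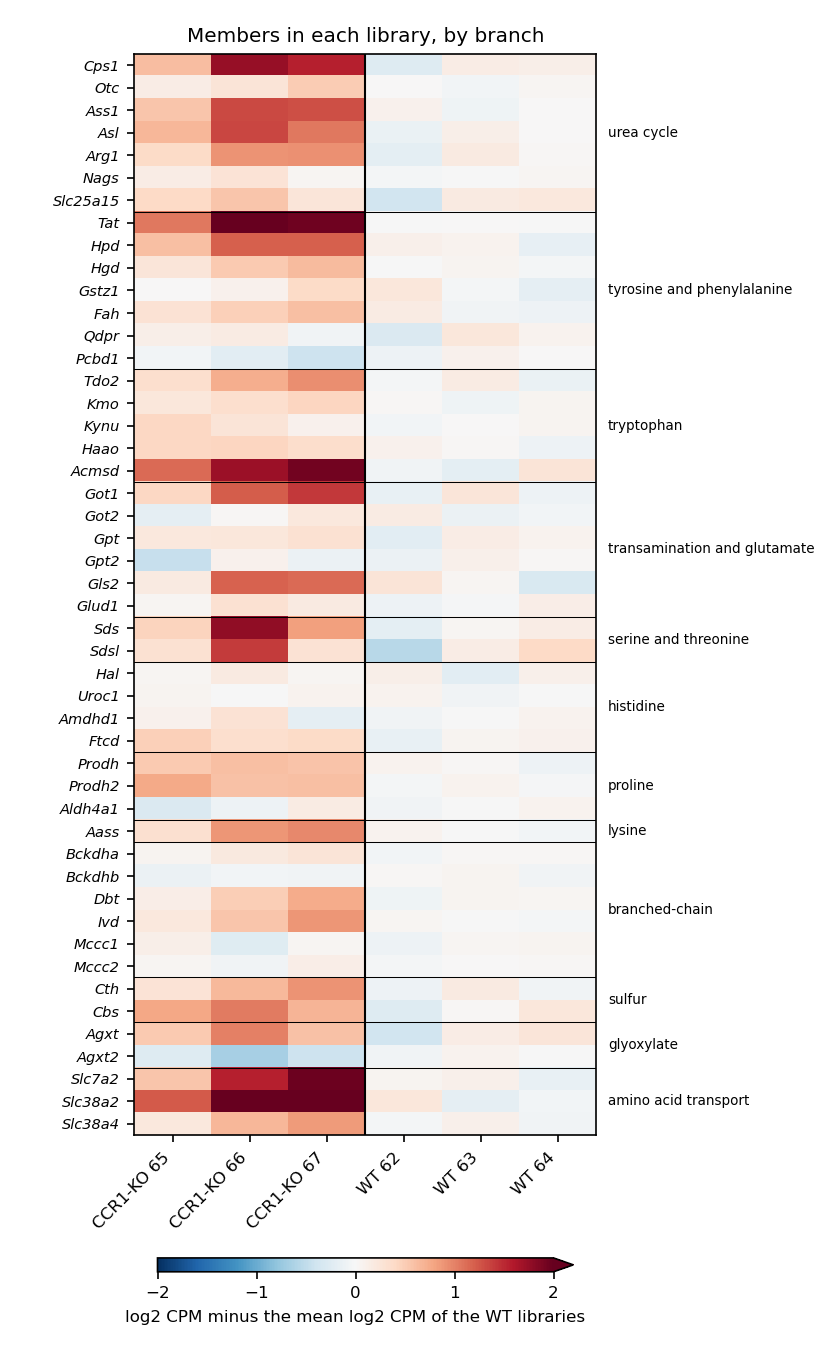
Each member in each library as log2 CPM minus the mean log2 CPM of the WT libraries (red higher, blue lower; rows by branch, columns by library, CCR1-KO left). Replicates 66 and 67 are both of a deeper red than 65 for Cps1, Ass1, Asl, Arg1, Tat, Hpd and the 3 carriers, whereas Prodh2 is deepest in 65.

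With TMM scaling, CCR1-KO replicate 65 was the mildest of its group. Over the 48 members the median of log2 CPM minus the WT mean was 0.26, 0.51 and 0.54 in CCR1-KO replicates 65, 66 and 67, against -0.05, 0.04 and 0.02 in WT replicates 62, 63 and 64. Over the 13 called members it was 0.62, 1.32 and 1.29 in those CCR1-KO libraries. Replicate 65 was the lowest of its group in 11 of the 13, with Prodh2 and Cbs the exceptions, and it also had the smallest Mup share. This order depends on the TMM factors, which were 1.06, 0.874 and 0.779 in replicates 65, 66 and 67. On the FPKM scale, which lacks them, replicate 65 was the highest of its group for Prodh, Prodh2 and Cbs and not the lowest for Asl. It was also the highest for Nags, Slc25a15, Kmo, Kynu and Haao. For the other called members it stayed the lowest. The urea cycle genes had medians of 0.40, 0.89 and 0.91 in replicates 65, 66 and 67, and the carriers 0.55, 1.55 and 1.96. Proline genes had 0.53, 0.59 and 0.57, with Aldh4a1 lowest and Prodh2 highest in replicate 65. Replicate 65 did not have the lowest median for the branched-chain genes (0.089, 0.069 and 0.19), the histidine genes (0.068, 0.24 and 0.055) or the glyoxylate genes (0.13, 0.18 and 0.086). The median of all tested genes lay between -0.03 and 0.0077 in these libraries.

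Levels can be compared between genes on the FPKM scale, which is scaled to gene length and total reads. Hpd was the highest member in both groups, with 827 ± 91.5 FPKM in CCR1-KO livers and 512 ± 30.9 FPKM in WT livers (SD, n = 3 each). Ass1 came next, with 672 ± 115 FPKM in CCR1-KO livers and 397 ± 21.2 FPKM in WT livers, below Hpd in every library of both groups. Tat followed in CCR1-KO livers, at 549.8 ± 158 FPKM, and had 200.1 ± 9.92 FPKM in WT livers, where Arg1 (319 ± 49.7), Tdo2 (298 ± 31.0), Pcbd1 (241 ± 24.0), Fah (227 ± 13.2) and Glud1 (206 ± 26.1) stood above it, Glud1 by less than the SD. In CCR1-KO livers Arg1 (423 ± 36.2), Cps1 (384 ± 109) and Tdo2 (379.7 ± 22.5) came next. Arg1 lay above Tdo2 in each CCR1-KO library, while Cps1 differed from either by less than its SD. Acmsd had the lowest level, with 2.44 ± 0.318 FPKM in CCR1-KO livers and 1.01 ± 0.215 FPKM in WT livers.

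Ratios between related members within a library do not depend on how libraries are scaled, and 8 pairs were compared. Cytosolic Got1 over mitochondrial Got2, on the FPKM scale, was 0.447, 0.672 and 0.680 in CCR1-KO livers, against 0.238, 0.378 and 0.286 in WT livers. The groups did not overlap, and the mean log2 ratio differed by 1.00 (exact two-sided permutation p = 0.10, the smallest that 3 against 3 libraries allow; 0.16 adjusted over the 8 pairs). The same p applied to 4 further pairs without overlap. Slc38a2 over Slc38a4 differed by 1.47, Agxt over Agxt2 by 1.15, Gpt over Gpt2 by 0.42 and Bckdha over Bckdhb by 0.25. The sign of each difference depends on which gene is divided by the other, so a shared sign has no meaning.

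Agxt over Agxt2 was 1.60, 2.98 and 1.87 in CCR1-KO livers and 0.745, 0.982 and 1.11 in WT livers, so the peroxisomal gene was the more abundant one in every CCR1-KO library and in 1 of 3 WT libraries. Slc38a2 over Slc38a4 was 0.0885, 0.152 and 0.135 in CCR1-KO livers and 0.0527, 0.0365 and 0.0446 in WT livers, so Slc38a4 stayed the more abundant carrier. Ratios overlapped between the groups for Sds over Sdsl (0.34, exact permutation p = 0.30), Prodh over Prodh2 (-0.08, p = 0.60) and Mccc1 over Mccc2 (-0.06, p = 0.60).

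**Figure D4:**
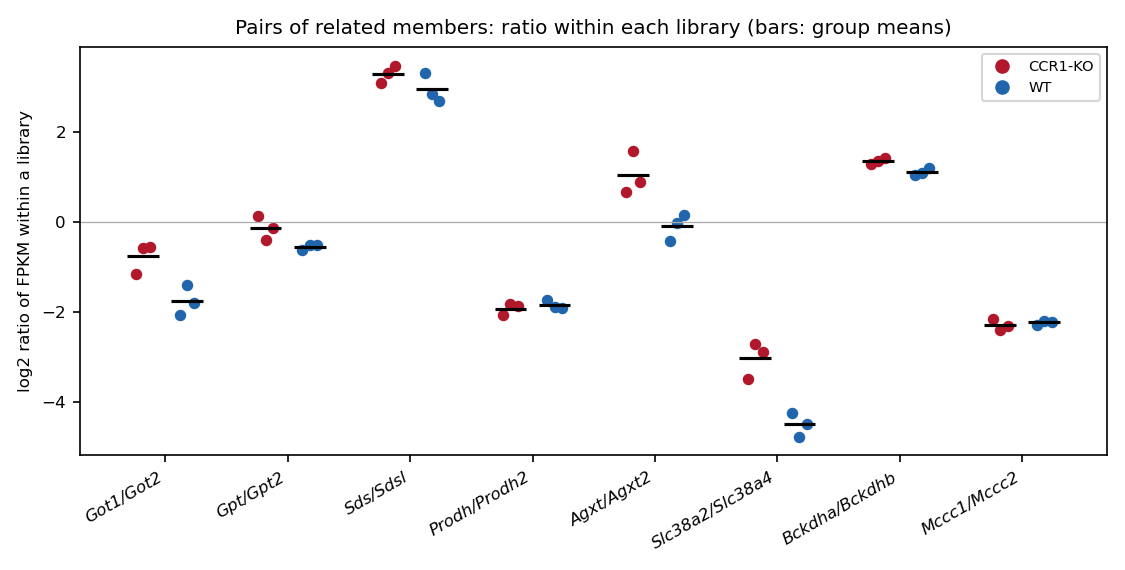
Log2 ratio of FPKM of 8 pairs of related members within each library, CCR1-KO (red) left of WT (blue); bars are group means. The groups are apart for Got1/Got2, Gpt/Gpt2, Agxt/Agxt2, Slc38a2/Slc38a4 and Bckdha/Bckdhb, and overlap for the other 3 pairs.

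Further genes of the same pathways were taken from a list of 83, of which 77 were tested. Of these, 8 passed as higher in CCR1-KO livers and 3 as lower, against 2.83% and 3.61% of all genes, with a median log2 fold change of 0.015. Tryptophan breakdown held 3 of the 8 among 6 tested genes. Kyat1, a kynurenine aminotransferase, had 153, 159 and 186 CPM in CCR1-KO livers and 70.0, 56.5 and 47.2 CPM in WT livers (1.52 ± 0.17, adjusted p = 0.00819), and its 3 CCR1-KO libraries lay close together. Its relative Kyat3 was higher by 1.18 ± 0.19 (adjusted p = 0.0177) and Afmid, which frees kynurenine from its formyl form, by 1.23 ± 0.27 (adjusted p = 0.0389). Of the other genes of tyrosine and phenylalanine breakdown 0 of 4 passed.

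In the list of other urea cycle and nitrogen genes 0 of 11 were higher and 3 were lower, with a median of -0.30. Sirt5, a mitochondrial deacylase known to act on Cps1, had 10.1, 11.2 and 9.95 CPM in CCR1-KO livers and 16.6, 16.2 and 14.3 CPM in WT livers (-0.59 ± 0.13, adjusted p = 0.0402). Rhbg, a pericentral ammonium carrier, fell by 0.79 on the log2 scale (adjusted p = 0.0453). Aldh18a1, which makes proline and ornithine precursors from glutamate, fell by 1.94 at low levels of 0.763, 0.398 and 0.318 CPM in CCR1-KO livers and 1.29, 1.76 and 2.66 CPM in WT livers (adjusted p = 0.0466). Glul, glutamine synthetase, had 955, 892 and 989 CPM in CCR1-KO livers and 1279, 1105 and 1193 CPM in WT livers without passing (adjusted p = 0.171).

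The sulfur list had 1 of 13 higher, Ahcy, which hydrolyses S-adenosylhomocysteine (1914, 2868 and 2745 CPM in CCR1-KO livers and 1325, 1339 and 1040.0 CPM in WT livers; 1.02 ± 0.20, adjusted p = 0.0295). The glycine, serine, lysine and hydroxyproline list had 1 of 14, the glycolate oxidase Hao1 (0.68 ± 0.16, adjusted p = 0.0449), and the branched-chain list 1 of 15, the acyl-CoA dehydrogenase Acadsb (0.65 ± 0.15, adjusted p = 0.0494). Of 14 further carriers 2 were higher: Slc16a10, a carrier of aromatic amino acids (1.07 ± 0.21, adjusted p = 0.0308), and Slc43a1, a carrier of large neutral amino acids (2.15 ± 0.47, adjusted p = 0.0386). Slc43a1 was low, with 4.78, 18.1 and 15.7 CPM in CCR1-KO livers and 3.13, 3.45 and 2.11 CPM in WT livers.

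Of 14 tested regulators of amino acid catabolism 2 were higher and 0 lower. Klf15, a transcription factor known in mouse liver for its action on amino acid catabolism, had 124, 161 and 175 CPM in CCR1-KO livers and 69.6, 72.3 and 59.1 CPM in WT livers (1.19 ± 0.16, adjusted p = 0.0114). Foxo1, the insulin-regulated factor of gluconeogenesis, had 49.0, 60.1 and 66.4 CPM in CCR1-KO livers and 30.1, 26.2 and 28.5 CPM in WT livers (1.05 ± 0.14, adjusted p = 0.0111). The groups did not overlap for either. Hnf4a (0.93 ± 0.24, adjusted p = 0.063) and Creb3l3 did not pass, nor did the glucocorticoid receptor gene Nr3c1 (0.26 ± 0.12). Log2 fold changes were above 0 for 9 of the 14. Below 0 were Cebpb (-1.07), Cebpa (-0.31), Ppargc1a (-0.15), Nr1h4 (-0.14) and Atf4 (-0.10), none past the threshold.

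Markers of hepatocyte zones were set beside the members. Of 8 periportal markers, 4 of which are members (Ass1, Sds, Gls2 and Hal), 2 were higher and 1 was lower, and they summed to 2142 to 2445 FPKM in CCR1-KO livers and 1556 to 1621 FPKM in WT livers. Pck1, the gluconeogenic enzyme, was the second one higher, with 3749, 4397 and 4788 CPM in CCR1-KO livers and 1076, 1135 and 1075 CPM in WT livers (1.98 ± 0.16, adjusted p = 0.00241). Hsd17b13, a lipid droplet enzyme, fell by 0.95 on the log2 scale (adjusted p = 0.00997). The higher periportal sum came mainly from Pck1 (mean 1025 FPKM in CCR1-KO livers, 325 FPKM in WT livers) and Ass1 (672 and 397 FPKM). Means were also higher for Sds (61.5 and 35.7 FPKM) and Gls2 (50.0 and 34.3 FPKM). They were lower in CCR1-KO livers for Cyp2f2 (310 and 409 FPKM), Hsd17b13 (141 and 337 FPKM), Hal (30.6 and 35.5 FPKM) and Cdh1 (2.68 and 5.83 FPKM). Pericentral markers gave 0 higher and 1 lower of 8, with sums of 4719 to 5595 FPKM in CCR1-KO livers and 3737 to 4451 FPKM in WT livers. Cyp2e1 made up most of these sums, at 4541 ± 376 FPKM in CCR1-KO livers and 3449.5 ± 426 FPKM in WT livers (SD, n = 3 each). Cyp2e1, Cyp1a2 and Slc1a2 were higher in every CCR1-KO library than in any WT library, none past the threshold. Cyp1a2 had a mean of 97.28 FPKM in CCR1-KO livers and 44.88 FPKM in WT livers. For Slc1a2 the means were 12.83 FPKM in CCR1-KO livers and 10.36 FPKM in WT livers. Glul, Axin2 and Rhbg lay the other way, lower in every CCR1-KO library than in any WT library. Glul had 206 ± 32.3 FPKM in CCR1-KO livers and 320.3 ± 20.2 FPKM in WT livers. Whether a shift between zones took part in the results on the members was not tested.

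**Figure D5:**
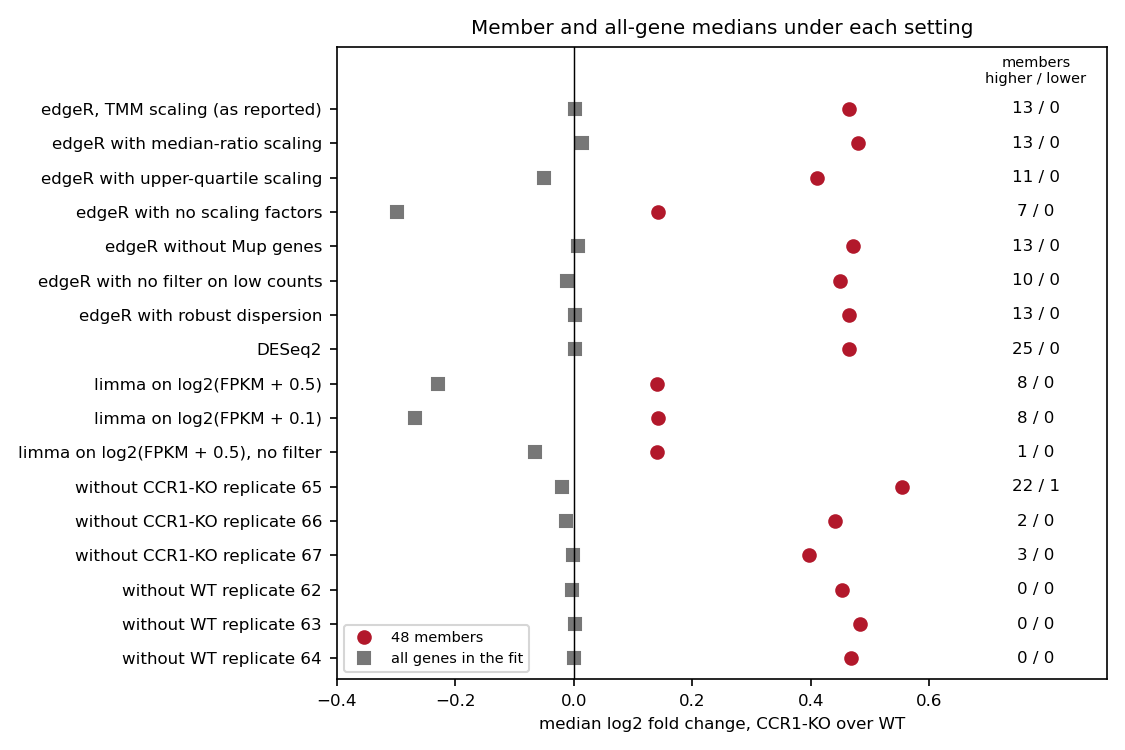
Median log2 fold change (CCR1-KO over WT) of the 48 members (red circles) and of all genes in the fit (grey squares) under the reported and the 16 other settings, with the members higher and lower in each. The red circle lies to the right of the grey square in every setting, by 0.21 to 0.57, while the number of members higher runs from 0 to 25.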

How the data were processed

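Poly(A) RNA of 6 livers was sequenced as pairs with dUTP strand marking, per the labels' protocols. The deposited table gives a read count per gene, not normalized, and an FPKM value scaled by the authors to gene length and library size, per the file headers. Per the submitters' processing notes, DESeq2, edgeR, StringTie 2.1.6, HISAT2 2.2.1 and cutadapt 1.9 were used, with no roles stated. The notes name the human build GRCh38, but 42 of the 48 members have the coordinates of mouse GENCODE M21 (GRCm38).

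Counts were tested with edgeR 4.0.16 (R 4.3.3; glmQLFit and glmQLFTest) after TMM scaling and filterByExpr (minimum count 10, minimum total 15), which left 17729 genes, all 48 members among them. Each SE was obtained as log2 fold change divided by the root of its F statistic, without sign. Calls needed a Benjamini-Hochberg adjusted p under 0.05 over all genes tested. Groups came from the labels. The titles number separate mice, with no batch given, and each pair of replicates differed by more than sampling noise, with a chi-square per degree of freedom of at least 62.8.

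Alternatives were DESeq2 1.42.0, other scalings and filters, limma 3.58.1 on log2(FPKM + 0.5) or log2(FPKM + 0.1) with a minimum of 0.5 FPKM in 3 libraries and on log2(FPKM + 0.5) without it, and leaving out each library. The tests were checked on simulated counts with known changes, where DESeq2 recovered more of the changed genes than edgeR and made more false calls.

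The members, and so the pairs formed among them, the branches, marker lists, motifs and further pathway genes were chosen with earlier results of these data known. All members past the threshold were named, and the others with their branch; further genes were named where past the threshold, up to 4 of smallest p per list. Glul, Hnf4a, Creb3l3, Nr3c1, Cebpb, Cebpa, Ppargc1a, Nr1h4, Atf4 and the genes named from the KEGG maps were named after their values were seen. The same holds for Cyp1a2, Slc1a2, Krt19, Krt7, Epcam and Sox9.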

Additional observations from a re-analysis of the deposited data

How the results depend on the processing

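The 13 called members had a log2 fold change above 0 under all 16 other settings, from 0.25 (Prodh) to 2.45 (Slc38a2), but the number of calls moved. It was 7 with no scaling factors, 25 with DESeq2 and 8 with limma on log2(FPKM + 0.5) or log2(FPKM + 0.1), against 1 with limma without a filter. With no scaling factors and in the limma fits the member median was 0.14. Median-ratio scaling, leaving out Mup genes and robust dispersion gave 13 calls each, upper-quartile scaling 11 and no filter on low counts 10. Leaving out 1 library gave 0 to 22 members higher, 0 to 1 lower and medians of 0.40 to 0.55. Each such fit has fewer samples, and the cause was not tested further. Ccr1 passed with no scaling factors (-3.05) and with DESeq2 (-2.74), and has no value in the limma fits with a filter, where it is too low.

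The sign turned for 13 members that did not pass. With no scaling factors these were Otc (-0.0058), Nags (-0.14), Gstz1 (-0.15), Qdpr (-0.24), Kynu (-0.023), Got2 (-0.30), Gpt (-0.065), Glud1 (-0.13), Hal (-0.22), Uroc1 (-0.26), Amdhd1 (-0.21), Bckdha (-0.14) and Mccc2 (-0.27). In limma on log2(FPKM + 0.5), with or without a filter, they were Otc (-0.0057), Nags (-0.15), Gstz1 (-0.15), Qdpr (-0.24), Kynu (-0.053), Got2 (-0.30), Gpt (-0.060), Glud1 (-0.13), Hal (-0.22), Uroc1 (-0.27), Amdhd1 (-0.24), Bckdha (-0.14) and Mccc2 (-0.27). With log2(FPKM + 0.1), values of the same genes differed little: Otc (-0.0057), Nags (-0.16), Gstz1 (-0.15), Qdpr (-0.24), Kynu (-0.055), Got2 (-0.30), Gpt (-0.061), Glud1 (-0.13), Hal (-0.22), Uroc1 (-0.28), Amdhd1 (-0.24), Bckdha (-0.14) and Mccc2 (-0.27). These settings lack the composition factors, and the median of all genes moved to -0.30 with no scaling factors, -0.23 and -0.27 in the filtered limma fits and -0.066 in limma without a filter. Upper-quartile scaling turned Got2 (-0.038), Uroc1 (-0.017) and Mccc2 (-0.013).

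Without 1 library the sign turned for 7 members near 0, and the lowest and highest values were -0.20 and 0.038 for Aldh4a1, -0.040 and 0.19 for Amdhd1, -0.092 and 0.11 for Got2, -0.015 and 0.14 for Hal, -0.091 and 0.082 for Mccc1, -0.016 and 0.086 for Mccc2, and -0.073 and 0.18 for Qdpr. No paired analysis was possible because the groups share no replicate number. With 3 libraries per group, members that did not pass may still differ. No source used here states how reads shared by overlapping genes or near-identical copies were assigned.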

Other observations

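The table's own annotation assigns genes to 11 KEGG maps of amino acid metabolism. With the 48 members left out, 213 of their genes were tested, of which 10 (4.69%) passed as higher in CCR1-KO livers and 9 (4.23%) as lower, against 2.83% and 3.61% of all genes, with a median log2 fold change of 0.079. Several of them, such as Aldh1b1, Acat2 and Hadh, are on more than 1 map. On the map of valine, leucine and isoleucine breakdown 4 genes were lower and 1, Acadsb, was higher (0.65 ± 0.15). Hmgcs1, the cytosolic synthase that feeds sterol synthesis, had 77.8, 47.6 and 61.0 CPM in CCR1-KO livers and 480.3, 464 and 239.5 CPM in WT livers (log2 fold change -2.67 ± 0.30, SE, adjusted p = 0.00854, edgeR). Acat2, a cytosolic thiolase, fell by 0.81 on the log2 scale, Hadh, a dehydrogenase of mitochondrial fat oxidation, by 0.63, and the mitochondrial aldehyde dehydrogenase Aldh1b1 by 1.34, with no overlap between the groups.

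On the map of glycine, serine and threonine, Alas1, which starts heme synthesis from glycine, had 688, 1231 and 1235 CPM in CCR1-KO livers and 483, 453 and 418 CPM in WT livers (1.22 ± 0.23, adjusted p = 0.0269). CCR1-KO replicate 65 was its lowest CCR1-KO library, as for most called members. The lysine map includes histone methyltransferases: Ehmt1 (0.61 ± 0.12), Nsd2 (0.58 ± 0.12) and Kmt2c (0.69 ± 0.16) were higher and Kmt5a (-0.60 ± 0.12) was lower. In the arginine and proline map, Smox, spermine oxidase, had 2.45 ± 0.334 CPM in CCR1-KO livers and 5.10 ± 0.398 CPM in WT livers (SD, n = 3 each; adjusted p = 0.0275). Hnmt, which methylates histamine, fell by 0.99 on the log2 scale (adjusted p = 0.03). Gm4737, an Ahcy-like gene, was higher with Ahcy (1.01 ± 0.21), and reads may be shared between the copies.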
